A study of Saccharomyces cerevisiae with 6 samples.

Results

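The genes described here encode the proteins of the mitochondrial ribosome of budding yeast, and were chosen by a rule on their names. The rule holds no value, but it was set with earlier results of these data known. The genes carry the symbols MRPL, MRPS, MRP or RSM followed by a number, with MRP8 left out. The rule matched 66 genes of the RefSeq R64 gene table, 38 of the large subunit and 28 of the small subunit. Of these, 56 had a named spot on the arrays, which makes 33 large-subunit and 23 small-subunit genes among the 4073 genes tested. No named spot was found for MRP35, MRPL1, MRPL22, MRPL50, MRPL51, MRPS8, MRPS12, MRPS16, MRPS17 and MRPS35, which are not analysed here. All 56 members had 7 spots, which were averaged, and no filter on low values was applied.

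The study asked how the loss of Rpd3, a histone deacetylase, alters the response of yeast RNA to heat. It used 6 arrays of 2 channels. On 3 of them, cells with a deletion of RPD3 held at 39 °C for 20 minutes were set against cells of the same deletion strain held at 25 °C, and on the other 3 the same was done with wild type. Both strains share the BY4741 laboratory background, in which HIS3, LEU2, MET17 and URA3 are deleted in whole or in part, and both were grown in rich medium to mid-log phase. The arrays of a strain are labelled as biological replicates from independent cultures. The number of deletion clones is not given in the sources used here.

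Mitochondrial ribosomes make the few proteins that the mitochondrial genome encodes, most of them core subunits of the respiratory chain and of ATP synthase. Nearly all of the ribosome's proteins are encoded in the nucleus, translated in the cytosol and imported. Many descend from the proteins of bacterial ribosomes and others are particular to mitochondria. In yeast, the RNA-binding protein Puf3 binds the messenger RNAs of many of these genes.

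Every value below is a log2 ratio, likely of heated over control cells of the same strain, and the strain difference is the mean ratio of the deletion minus that of wild type. The sign is called likely because the design text sets the response relative to the control, and because all 12 heat and stress marker genes were called higher in both strains, with medians of 4.16 in the deletion and 3.74 in wild type. "Rose", "fell", "higher" and "lower" calls refer to a limma adjusted p under 0.05 over all 4073 genes. The error of a strain's mean is the SD of its 3 arrays, and that of a difference is the standard error from the fit. Each ratio is taken against the strain's own control, so a strain difference can come from the heated or from the control cells. In bulk RNA, fewer cells of a kind and less RNA per cell cannot be told apart. The dyes were not exchanged, so within a strain a dye effect and heat cannot be told apart.

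Across genes, which are not replicates, arrays correlated with r = 0.851 to 0.956 within the deletion, 0.952 to 0.980 within wild type and 0.504 to 0.853 between strains. RPD3 had a ratio of -0.07 ± 0.040 in the deletion, where both channels lack its RNA, and 0.22 ± 0.034 in wild type. The 4 genes deleted in BY4741 make no full transcript in either strain. Their mean was -0.07, -0.09 and -0.12 on deletion arrays 1 to 3, against 0.25, 0.13 and 0.08 on wild-type arrays 1 to 3, and all 4 went without a call in every comparison. For these genes the deletion arrays lay below 0 and the wild-type arrays above it. Many of the ratios described below are of this size, and the part of this offset in them was not tested beyond the other centring given beside the counts.

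In median size, the heat response of the mitochondrial ribosomal protein genes was near that of all genes in the rpd3 deletion. It was smaller in wild type, and in both strains the members spread less widely than all genes. The median size of the mean log2 ratio, whatever its sign, was 0.34 among the members in the deletion and 0.16 in wild type, against 0.39 and 0.42 among all genes. In the deletion, 11 members rose, 29 fell and 16 were not called. In wild type, 1 rose, 11 fell and 44 were not called. The called share was 71.4% of the members in the deletion, where 65.6% of all genes were called, 33.7% higher and 31.9% lower. In wild type it was 21.4% of the members, where 66.0% of all genes were called, 29.7% higher and 36.3% lower. No member reached a mean change of 2-fold in either strain, against 16.0% of all genes in the deletion and 20.5% in wild type. The SD across the members was 0.40 in the deletion and 0.22 in wild type, against 0.88 and 0.97 across all genes.

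The medians of the large and small subunits had no constant order. The median ratio of the large-subunit genes was -0.20, -0.18 and -0.31 on deletion arrays 1 to 3, against -0.01, -0.12 and -0.08 on wild-type arrays 1 to 3. For the small-subunit genes it was -0.23, -0.15 and -0.15 on the deletion arrays, against -0.07, -0.07 and -0.19 on the wild-type arrays. The large-subunit medians of the deletion arrays were all below those of wild type, while for the small subunit the groups overlapped. Within an array, the large-subunit median minus the small-subunit median was 0.02, -0.03 and -0.15 in the deletion, against 0.06, -0.05 and 0.11 in wild type. It took both signs in each strain, so that no order of the subunits held on all arrays. Over the strain means the small-subunit median was -0.21 in the deletion, and it was -0.11 with the median of the spots and -0.13 without the 25% of genes with the widest spot spread, against -0.25 and -0.29 for the large subunit. In the deletion, 6 large-subunit genes rose, 18 fell and 9 were not called, and 5 small-subunit genes rose, 11 fell and 7 were not called. In wild type these counts were 1, 7 and 25 for the large subunit and 0, 4 and 19 for the small subunit.

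**Figure D1:**
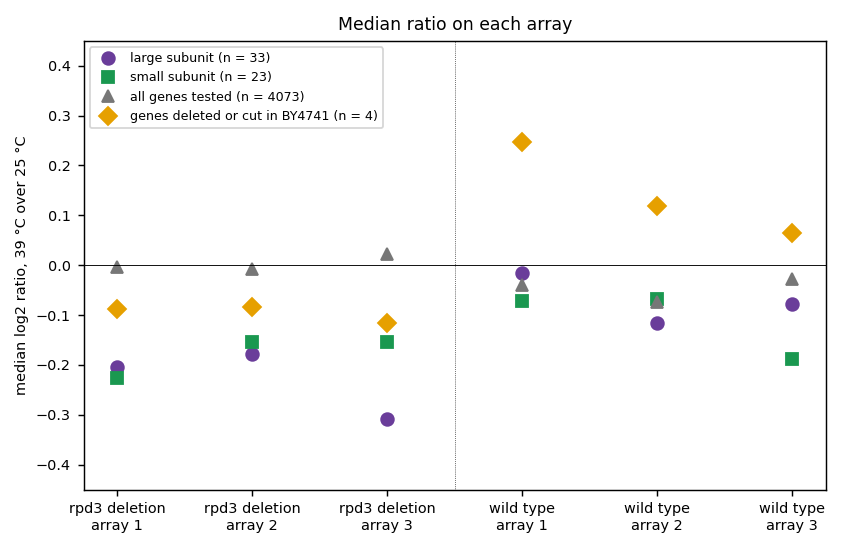
Median log2 ratio (39 °C over 25 °C) of the large-subunit, small-subunit, all and deleted genes (the 4 that BY4741 lacks) on each of the 3 deletion and 3 wild-type arrays. The subunit medians lie between -0.31 and -0.15 on deletion arrays and between -0.19 and -0.01 on wild-type arrays.

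In the deletion, 18 of the 33 large-subunit genes fell. MRPL20 had ratios of -0.96, -1.01 and -0.94, a fall of 1.96-fold, and its adjusted p in limma was 7.18e-05. Its product, mL58, is a mitochondria-specific protein of the large subunit. MRPL37, encoding mL54, had ratios of -1.18, -0.79 and -0.92 (adjusted p = 0.000109). MRPL38, which encodes uL14m of the interface between the subunits, had ratios of -0.91, -1.01 and -0.96 (adjusted p = 3.58e-05). These 3 genes had the lowest means of all members in the deletion, each near a 2-fold decrease and nearly level between arrays except for MRPL37.

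Among the small-subunit genes that fell in the deletion, MRPS9 had the lowest mean, with ratios of -0.71, -0.66 and -0.84 (limma adjusted p = 0.000125). It encodes uS9m, the counterpart of bacterial S9. RSM26, whose product mS42 is related in sequence to superoxide dismutases, had ratios of -0.78, -0.76 and -0.57 (adjusted p = 0.000197). RSM19, encoding uS19m of the subunit's head, varied more, with ratios of -0.71, -0.24 and -1.15 (adjusted p = 0.0088). MRP21 (bS21m) and MRP2 (uS14m) followed, with means of -0.45 ± 0.049 and -0.42 ± 0.13 (SD, n = 3 each). In each of these 5 genes all 3 deletion arrays were negative. With the trend along coding length removed, RSM19, MRP21 and MRP2 were no longer called, while MRPS9 and RSM26 were.

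The 11 members that rose in the deletion were 6 of the large and 5 of the small subunit. RSM28, which encodes the mitochondria-specific protein mS46, had ratios of 0.77, 0.44 and 1.10, the highest mean of all members (limma adjusted p = 0.0059). RSM22, whose product resembles methyltransferases, had ratios of 0.49, 0.60 and 0.75 (adjusted p = 0.00221). MRP51, encoding bS1m, had ratios of 0.50, 0.45 and 0.54 (adjusted p = 0.00132). These 3 were the highest of the small subunit, and all their arrays were positive. In the large subunit, MRPL16 had ratios of 0.53, 0.41 and 0.53 (adjusted p = 0.00154). Its product, uL16m, lies close to the sites that bind transfer RNA. MRPL3, whose product mL44 has an RNase III-like fold, had a mean of 0.31 ± 0.19 (adjusted p = 0.0163), and MRP1, encoding mS43, one of 0.24 ± 0.095 (adjusted p = 0.037).

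Of the 40 calls in the deletion, 25 held when each array was left out in turn. Those of MRPL3 and MRPL40 were lost without deletion arrays 1 or 3, that of MRP1 also without wild-type array 1, and that of MRPS28 (adjusted p = 0.0459) without any 1 of the 6 arrays. The calls of MRP10, MRP17, MRPL4, MRPL6, MRPL23, MRPL24, MRPL28, MRPL49 and RSM10 were also lost without deletion arrays 1 or 3. Those of MRPL24 and MRPL49 were lost without deletion array 2 as well, that of MRP10 without wild-type array 1, and that of MRPL4 without wild-type arrays 1 or 2. The calls of MRPS5 and MRPS18 were lost without deletion arrays 1 or 2, and that of MRPS5 also without wild-type array 1. Without deletion array 1, 6 members rose and 19 fell, and without deletion array 3, 6 rose and 21 fell. With the trend of the ratio along coding length removed on each array, 19 rose, 8 fell and the median over members was 0.01 in place of -0.22, and 19 of the 40 calls were kept. With the arrays centred on the 4 deleted genes, 19 fell and 30 of the 40 calls were kept.

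In wild type, MRPL23, encoding uL13m, was the single member that rose, with ratios of 0.24, 0.41 and 0.15 (limma adjusted p = 0.0279). That call was lost without deletion array 1 and without wild-type arrays 1 or 2, where adjusted p lay between 0.059 and 0.155. MRPL20 fell here too, with ratios of -0.54, -0.71 and -0.93 (adjusted p = 0.000225), and it had the lowest mean in wild type as it did in the deletion. MRPL37 fell with a mean of -0.51 ± 0.13 and MRPL15 with one of -0.46 ± 0.23. The product of MRPL15, mL57, has an RNase III-like fold, as that of MRPL3 has. MRPL32 and MRPL31 fell with means of -0.45 ± 0.051 and -0.41 ± 0.11. In the small subunit the 4 called members were MRPS28, RSM18, RSM25 and MRPS5, with means of -0.31, -0.28, -0.26 and -0.25. At an unadjusted p under 0.05 in limma, 14 of the 56 members were called in wild type, against 2823 of all 4073 genes. Of the 12 calls, 6 held when each array was left out in turn. The others were those of MRPL23, of MRPL15 (lost without wild-type array 2), of MRPL38 (wild-type arrays 1 or 3), of MRPS5 (arrays 1 or 2) and of RSM18 and RSM25 (arrays 2 or 3). With arrays centred on the deleted genes, 29 members fell in wild type and none rose. With the length trend removed 10 rose and 7 fell, with each strain fitted alone 4 rose, and with arrays centred on the median of all genes 2 rose.

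Set against each other, the strains gave different calls for most members. The called share was 71.4% of the members in the deletion and 21.4% in wild type, so most calls in the deletion could have no match in wild type. The shares of all genes in these combinations were not computed, and the counts are descriptions only. Only 6 genes fell in both strains (MRPL20, MRPL31, MRPL32, MRPL37, MRPL38 and MRPS5), and none rose in both. With the length trend removed, MRPL31 and MRPL32 lost their call in the deletion, MRPL38 its call in wild type and MRPS5 both calls. MRPL31 then had a ratio of 0.01 in the deletion. MRPL11 and MRPS28 rose in the deletion and fell in wild type, and MRPL23 fell in the deletion and rose in wild type. A further 22 members fell and 9 rose in the deletion without a call in wild type, 3 fell in wild type without a call in the deletion, and 13 were called in neither. A call in 1 strain alone does not show a difference, which is tested in the next comparison.

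Across the 56 members, the mean ratios of the 2 strains correlated with r = 0.08 (Spearman rho = -0.01), against r = 0.763 (rho = 0.597) across all 4073 genes. The members share arrays, and their range is narrower than that of all genes. Between arrays, the members' ratios correlated with r = 0.723 to 0.932 within the deletion, 0.581 to 0.657 within wild type and -0.45 to 0.50 between strains. The order of the members was therefore shared among the arrays of a strain and much less between strains.

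**Figure D2:**
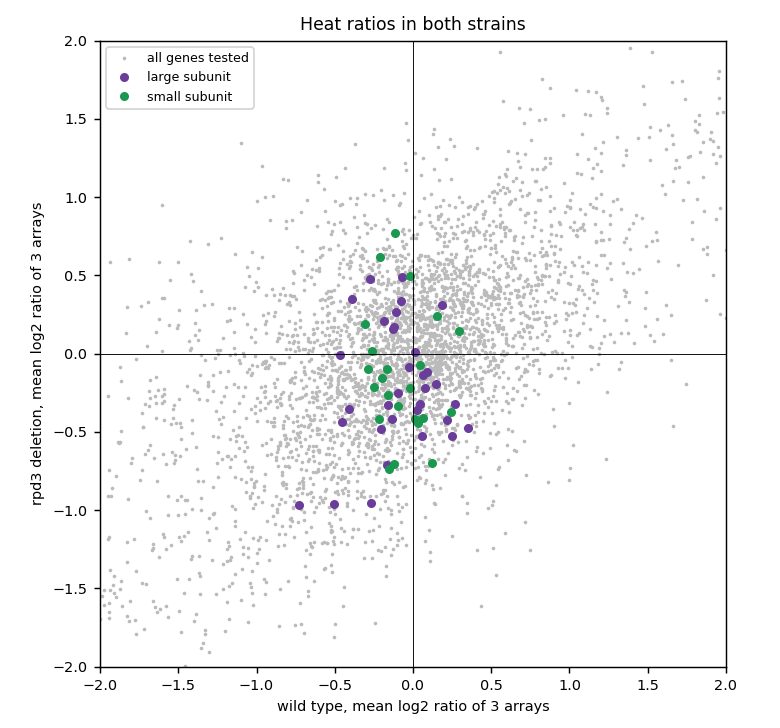
Mean log2 ratio (39 °C over 25 °C) in the rpd3 deletion (vertical axis) against wild type (horizontal axis), with 1 point per gene, members by subunit over all genes in grey. The axes stop at 2, which leaves 295 genes outside, and the 56 members lie in a band that is wider along the deletion axis than along the wild-type axis.

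In the strain difference, 10 members were higher, 19 lower and 27 not called. That is 51.8% of the members, with 45.8% of all genes called, 24.8% of them higher and 21.0% lower. The large subunit had 6 higher and 12 lower genes and the small subunit 4 higher and 7 lower. Medians were -0.20 for the large and -0.12 for the small subunit, with -0.16 for all members and 0.02 for all genes. The small-subunit median was -0.03 without wild-type array 1, -0.07 without deletion array 3, -0.06 with the median of the spots and -0.04 without the genes of widest spot spread, and array weights put it at -0.21. The large-subunit median was -0.14 without wild-type array 1. The 3 deletion arrays lay wholly below the 3 wild-type arrays for 23 members and wholly above them for 14, which is 66.1% of the members and compares with 58.4% of all genes (27.3% below and 31.1% above). By subunit these were 16 below and 8 above for the large, and 7 below and 6 above for the small.

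These counts moved with the arrays used and with the centring. Without deletion array 1, 5 members were higher and 7 lower. Without deletion array 3 the counts were 8 and 12, without wild-type array 1 they were 8 and 8, and without wild-type array 2 they were 7 and 7. Of the 29 calls, 12 held when each array was left out in turn. Centring the arrays on the deleted genes moved the difference of every gene by 0.25, which put the median of all genes at 0.27 and that of the members at 0.08, with 17 members higher and 4 lower. It kept 14 of the 29 calls, and the 15 that were lost were all of lower members. The large-subunit median was then 0.05 and the small-subunit median 0.13. Relative to the median of all genes the members stood at -0.18 with either centring, since by arithmetic 1 shift of all genes leaves that value as it is. Whether the offset of the deleted genes is common to all genes was not tested. With the length trend removed, 14 were higher and 12 lower, and the members' median was 0.01, with 22 of the 29 calls kept.

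**Figure D3:**
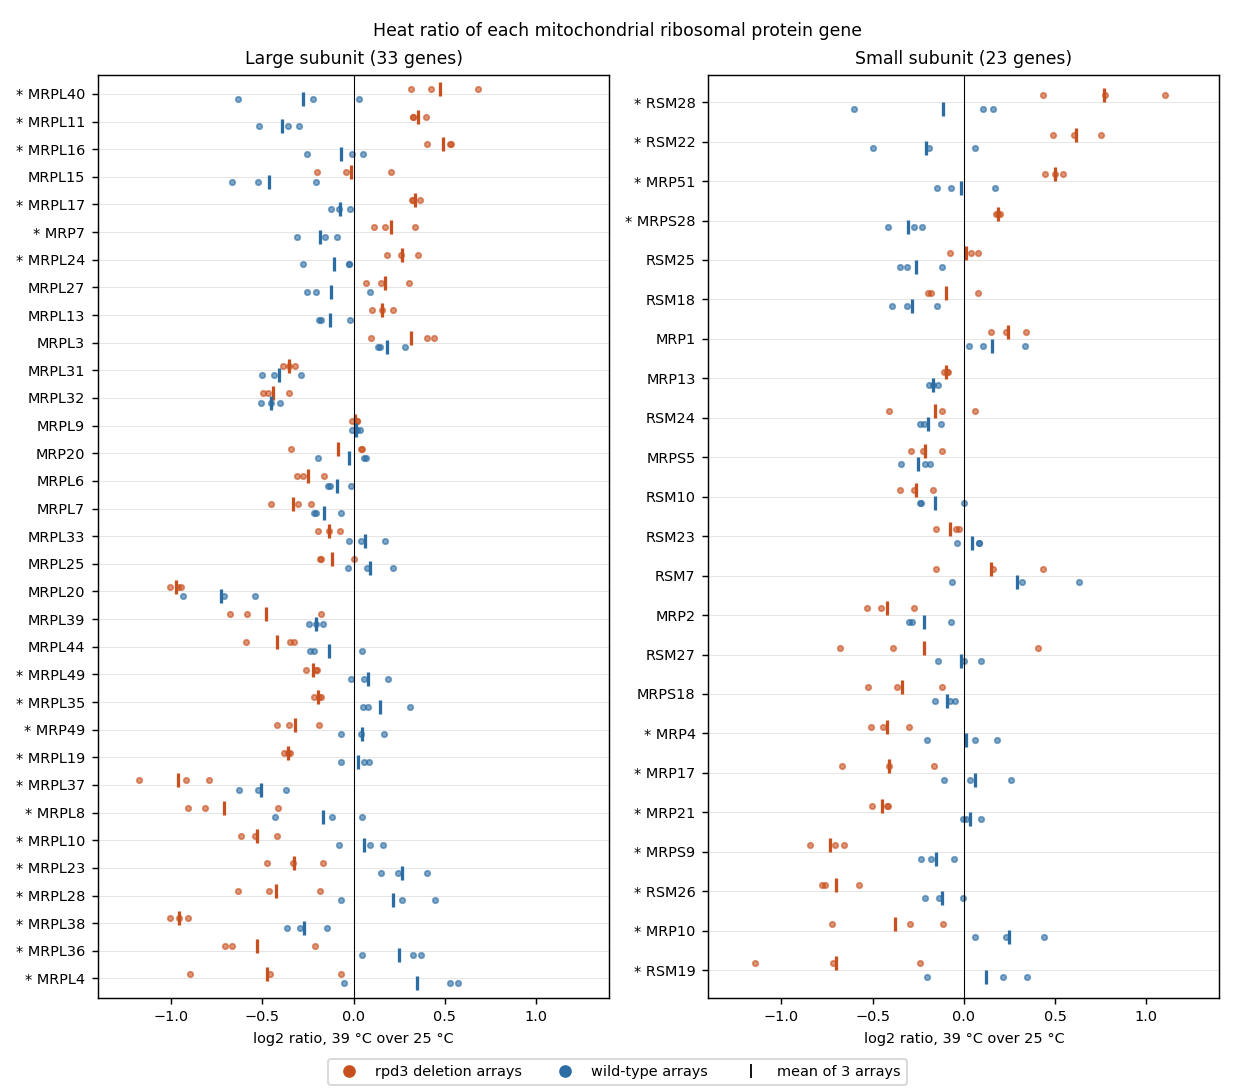
Log2 ratio (39 °C over 25 °C) of each of the 33 large-subunit and 23 small-subunit genes on the 3 deletion and 3 wild-type arrays, with bars at the means and genes ordered by the strain difference. An asterisk marks the 29 genes called in the strain difference, 10 higher and 19 lower in the deletion.

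Of the 33 large-subunit genes, 12 were lower in the deletion. MRPL4, whose product uL29m lies at the polypeptide exit, had ratios of -0.46, -0.07 and -0.90 in the deletion, against 0.53, 0.57 and -0.05 in wild type. The groups did not overlap, but the highest deletion array and the lowest wild-type array differed by little. Its difference of -0.83 ± 0.25 was the lowest of all members (limma adjusted p = 0.0301). The call was lost with centring on the deleted genes and without deletion arrays 1 or 3 or wild-type arrays 1 or 2, with adjusted p between 0.0541 and 0.113 without these arrays.

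MRPL36, which encodes bL31m, a protein that spans the interface between the subunits, had ratios of -0.67, -0.21 and -0.71 in the deletion, against 0.33, 0.37 and 0.05 in wild type. All deletion arrays were negative and all wild-type arrays positive. The difference was -0.78 ± 0.16 (limma adjusted p = 0.00848). MRPL38 differed by -0.69 ± 0.10 (adjusted p = 0.00249), with a mean of -0.96 ± 0.049 in the deletion, against -0.27 ± 0.11 in wild type (SD, n = 3 each). Its arrays in both strains were negative, so the gene was lower with heat in both and more so in the deletion.

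MRPL10, encoding uL15m, had ratios of -0.54, -0.62 and -0.42 in the deletion, against 0.16, 0.09 and -0.08 in wild type. The gap between the groups was wider than the range within either group. Its difference was -0.58 ± 0.11 (limma adjusted p = 0.00594). MRPL23 had ratios of -0.33, -0.17 and -0.47 in the deletion, against 0.24, 0.41 and 0.15 in wild type. It is the one member that fell in the deletion and rose in wild type, and its difference was -0.59 ± 0.12 (adjusted p = 0.00806). MRPL28, encoding mL40, had a mean of -0.43 ± 0.23 in the deletion, against 0.22 ± 0.26 in wild type (difference -0.64 ± 0.17, adjusted p = 0.0207). The call of MRPL23 was lost when arrays were centred on the deleted genes, and so was that of MRPL28, which was also lost without deletion array 1 or wild-type arrays 1 or 2.

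The large-subunit genes that were higher in the deletion were MRPL40, MRPL11, MRPL16, MRPL17, MRP7 and MRPL24. MRPL11, whose product uL10m forms the base of the stalk that recruits translation factors, had ratios of 0.33, 0.33 and 0.40 in the deletion, against -0.36, -0.52 and -0.30 in wild type. The 2 strains had opposite signs on every array. Its difference of 0.74 ± 0.10 had the lowest adjusted p of the members (limma, 0.00188). MRPL40, encoding uL24m of the exit region, had ratios of 0.42, 0.32 and 0.68 in the deletion, against 0.03, -0.63 and -0.22 in wild type. Its groups did not overlap, and the wild-type arrays spread more widely. The difference was 0.75 ± 0.19 (adjusted p = 0.0154).

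MRPL16 had a mean of 0.49 ± 0.073 in the deletion, against -0.07 ± 0.16 in wild type (SD, n = 3 each), and a difference of 0.56 ± 0.12 (limma adjusted p = 0.0082). MRPL17, which encodes mL46, differed by 0.41 ± 0.094 (adjusted p = 0.011). MRP7, whose product bL27m has in bacteria a tail that reaches the peptidyl transferase centre, differed by 0.39 ± 0.11 (adjusted p = 0.0267). It was called in neither strain alone, with a mean of 0.21 ± 0.11 in the deletion, against -0.18 ± 0.11 in wild type. MRPL24, encoding bL28m, differed by 0.37 ± 0.12 (adjusted p = 0.0329). The calls of MRP7 and MRPL24 were lost without deletion arrays 1 or 3 or wild-type arrays 1 or 2, and that of MRPL17 without deletion array 1.

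In the small subunit, RSM19 had ratios of -0.71, -0.24 and -1.15 in the deletion, against 0.34, 0.21 and -0.20 in wild type. The groups were next to each other, with deletion array 2 and wild-type array 3 almost level. The difference was -0.82 ± 0.24 (limma adjusted p = 0.0294), and the call was lost without deletion array 1 or wild-type arrays 1 or 2. MRP10, a small protein of the twin-cysteine type that is imported through the Mia40 pathway, had ratios of -0.30, -0.11 and -0.72 in the deletion, against 0.23, 0.44 and 0.06 in wild type. All deletion arrays were negative and all wild-type arrays positive, with a difference of -0.62 ± 0.18 (adjusted p = 0.0262) that was lost without the same arrays. Both calls were also lost with centring on the deleted genes and with the length trend removed.

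MRPS9 and RSM26 were lower on every deletion array by a wide margin. MRPS9 had ratios of -0.71, -0.66 and -0.84 in the deletion, against -0.18, -0.05 and -0.23 in wild type, and a difference of -0.58 ± 0.11 (limma adjusted p = 0.00494). RSM26 had a mean of -0.70 ± 0.11 in the deletion, against -0.12 ± 0.10 in wild type (SD, n = 3 each), and a difference of -0.58 ± 0.11 (adjusted p = 0.00577). Both genes were negative in both strains and called against 0 in the deletion only. MRP21 differed by -0.48 ± 0.095 (adjusted p = 0.00667), MRP17, encoding bS6m, by -0.47 ± 0.16 (adjusted p = 0.0454) and MRP4, encoding uS2m, by -0.43 ± 0.13 (adjusted p = 0.0304). With centring on the deleted genes the strain-difference calls of RSM26, MRP21, MRP17 and MRP4 were lost, and with the length trend removed that of MRP17. The calls of MRP17 and MRP4 were also lost without any 1 of deletion arrays 1 or 3 or wild-type arrays 1 or 2, and that of MRP17 also without wild-type array 3.

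The 4 small-subunit genes that were higher in the deletion were RSM28, RSM22, MRP51 and MRPS28. RSM28 had ratios of 0.77, 0.44 and 1.10 in the deletion, against 0.10, -0.60 and 0.16 in wild type. Its difference of 0.88 ± 0.25 was the highest of all members (limma adjusted p = 0.0234), and wild-type array 2 lay far below the other two. Without that array, without wild-type array 1 or without deletion array 1 the call was lost, with adjusted p between 0.0513 and 0.0703. RSM22 had ratios of 0.49, 0.60 and 0.75 in the deletion, against 0.06, -0.50 and -0.19 in wild type, and a difference of 0.83 ± 0.16 (adjusted p = 0.0061).

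MRPS28, encoding uS15m, had ratios of 0.19, 0.18 and 0.20 in the deletion, against -0.23, -0.41 and -0.28 in wild type. The deletion arrays were nearly level and the signs were opposite on every array. The difference was 0.49 ± 0.099 (limma adjusted p = 0.00692). MRP51, whose product acts in the translation of mitochondrial messenger RNAs, among them those of cytochrome c oxidase, had ratios of 0.50, 0.45 and 0.54 in the deletion, against -0.07, -0.15 and 0.17 in wild type (difference 0.51 ± 0.12, adjusted p = 0.0108). Its call was lost without deletion array 1 (adjusted p = 0.0512). Calls of the strain difference that held under every alternative tried were those of MRPL10, MRPL11, MRPL16, MRPL36, MRPL38, MRPL40, MRPS9, MRPS28 and RSM22.

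For the members with no call in the strain difference, the intervals show which sizes of difference remain compatible with the data. MRPL9, encoding uL3m, which reaches toward the peptidyl transferase centre, had ratios of 0.02, -0.01 and 0.02 in the deletion, against 0.02, 0.04 and -0.01 in wild type. Its difference was -0.01, with a 95% interval from -0.22 to 0.21. MRPL32, whose product bL32m is matured by the m-AAA protease of the inner membrane, fell in both strains, with a mean of -0.44 ± 0.076 in the deletion, against -0.45 ± 0.051 in wild type, and an interval of the difference from -0.21 to 0.24. MRPS5, encoding uS5m, likewise had an interval from -0.20 to 0.28.

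RSM23, encoding mS29, the homolog of human DAP3, differed by -0.12 (95% interval -0.35 to 0.11), and MRP20, encoding uL23m of the exit region, by -0.06 (interval -0.40 to 0.28). RSM10, encoding uS10m, differed by -0.10 (interval -0.37 to 0.16). MRPL44, encoding mL53, differed by -0.29, and its interval from -0.59 to 0.01 includes changes as large as those called in other members. MRPL20, the lowest member in both strains, differed by -0.24 (interval -0.53 to 0.05), and all its deletion arrays lay below those of wild type. Over all 56 members, called or not, the interval of the difference stayed within a 2-fold change in either direction for 48. That is 85.7%, against 71.5% of all genes.

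Members with a counterpart in bacteria, by the uniform ribosomal protein nomenclature, were set beside those particular to mitochondria. Of the 33 with a bacterial counterpart, 6 rose and 21 fell in the deletion, with a median of -0.32, and of the 22 mitochondria-specific members 4 rose and 8 fell, with a median of -0.14. As shares these were 18.2% and 63.6% of the bacterial type and 18.2% and 36.4% of the mitochondria-specific type, against 33.7% and 31.9% of all genes. In wild type the medians were -0.09 and -0.12. Strain differences were called for 7 higher and 13 lower members with a bacterial counterpart (median -0.20) and for 2 higher and 6 lower mitochondria-specific members (median -0.04), against 24.8% higher and 21.0% lower of all genes. The difference between the types was not tested. RSM22 has no uniform name and stands in neither group.

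The ratios of the members followed coding length in the deletion and not in wild type. Coding length, from start to stop and with any intron, had a median of 730.5 base pairs among the members (213 to 1887), 645 in the large and 801 in the small subunit, against 1338 among all 4065 genes with a length. Across the 56 members, the correlation of the ratio with log2 length was r = 0.50 in the deletion and r = 0.00 in wild type, and r = 0.46 for the strain difference. Across all genes these values were 0.22, 0.07 and 0.19. The genes share the arrays, and spot brightness is not known here, so these are descriptions only.

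Of the 28 members at or below the median length, 1 rose and 22 fell in the deletion, with a median of -0.37, and of the 28 longer members 10 rose and 7 fell, with a median of 0.01. In wild type the medians were -0.08 and -0.12. In the strain difference, 1 of the shorter members was higher and 13 were lower, with a median of -0.28, while 9 of the longer members were higher and 6 lower, with a median of 0.08. The 742 other genes of at most the same length had a median of -0.22 in the deletion, where 17.7% rose and 48.2% fell, and a median strain difference of -0.14, with 15.2% higher and 25.9% lower. The 3267 longer ones had a median of 0.07 in the deletion, where 37.6% rose and 27.8% fell, and one of 0.07 in the strain difference, with 27.2% higher and 19.6% lower. Short members such as RSM19 (276 base pairs), MRP10 (288) and MRPL37 (318) were among the lower ones, and RSM22, the longest (1887), and RSM28 (1086) had the highest strain differences. The shortest members, MRPL39 (213) and MRPL33 (261), had no call in the strain difference. The 6 longer members that were lower were MRP4 (1185), MRPL35 (1104), MRPL10 (969), MRPL4 (960), MRPS9 (837) and RSM26 (801). Of these, MRPL4 had the lowest strain difference of all members (-0.83).

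**Figure D4:**
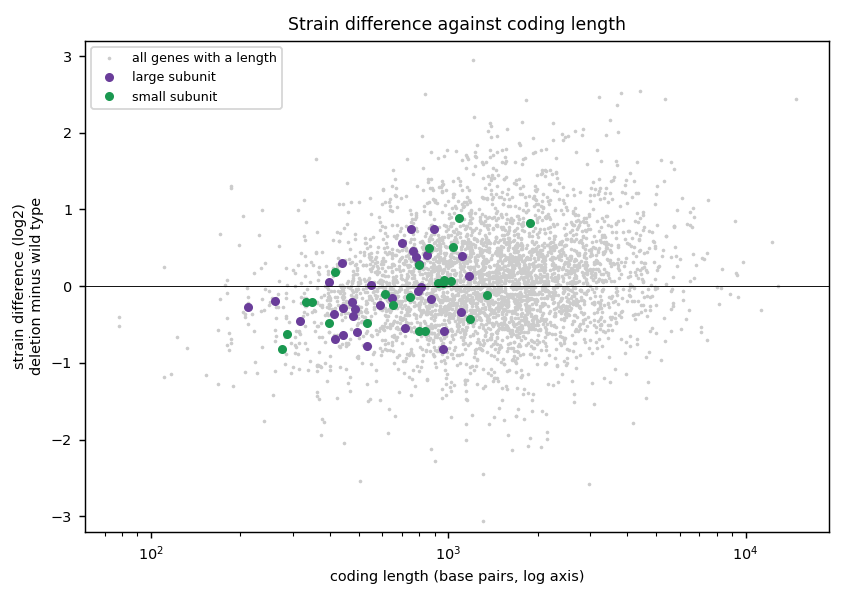
Strain difference in the log2 ratio (deletion minus wild type) against coding length in base pairs on a log axis, with 1 point per gene, members by subunit over all genes with a length in grey. Longer members have higher differences (r = 0.46 over 56 genes).

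A list of 11 further genes that have been named as mitochondrial ribosomal had 3 (27.3%) that rose and 4 (36.4%) that fell in the deletion. Among all genes 33.7% rose and 31.9% fell there. In the strain difference 1 (9.1%) was higher and 2 (18.2%) lower, against 24.8% and 21.0% of all genes, with a median of 0.07. The counts of this list, whole or reduced, are descriptions only. The list includes KGD4 and RPM2, which are known for other roles. Without them 2 of 9 genes rose and 3 fell in the deletion, an alternative chosen after seeing the data. In the strain difference 1 of these 9 was higher and 1 lower. The lower gene was PPE1, which was kept although it too is known for another role. Of the 11 genes, the small-subunit gene PET123 had the highest strain difference (0.65 ± 0.12, limma adjusted p = 0.00582). Its mean was 0.45 ± 0.032 in the deletion, against -0.20 ± 0.20 in wild type. PPE1, whose product is also known as a methylesterase of protein phosphatase 2A, was the lowest, at -0.52 ± 0.14 in the deletion, against 0.53 ± 0.10 in wild type (difference -1.05 ± 0.12, adjusted p = 0.000919). KGD4 stood at almost the same place (difference -1.05 ± 0.096, adjusted p = 0.000629), and its product is now counted as a subunit of 2-oxoglutarate dehydrogenase rather than of the ribosome. VAR1, the ribosomal protein gene of the mitochondrial genome, had ratios of -0.05 ± 0.014 in the deletion, against 0.18 ± 0.16 in wild type, close to those of the deleted genes. The labelling was primed with oligo-dT, and yeast mitochondrial messenger RNAs carry no poly(A) tails.

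Among 10 translation factors and membrane anchors, 3 were higher and 3 lower in the strain difference (median -0.26). Among all genes 24.8% were higher and 21.0% lower, and the counts of this and the following small lists are given as descriptions only. MEF1, an elongation factor, was higher by 0.54 ± 0.13 and TUF1, the mitochondrial elongation factor Tu, lower (-0.70 ± 0.17, limma adjusted p = 0.0154). Of 24 translational activators and messenger RNA factors, 5 were higher and 7 lower (median -0.17). They ranged from MSS51, which activates translation of the COX1 messenger RNA (-1.09 ± 0.16), to PET309, which acts on the same messenger RNA (0.72 ± 0.20). Of 12 mitochondrial aminoacyl-tRNA synthetases, 1 was higher and 4 were lower (median -0.22). Of these MSE1, the glutamyl-tRNA synthetase, was lowest (-0.61 ± 0.11), and MSW1, the tryptophanyl-tRNA synthetase, had the highest estimate and no call (0.35 ± 0.13, adjusted p = 0.0628). A list of 12 genes taken for mitochondrial ribosome assembly had 3 higher and 2 lower (median 0.08). The highest of that list, RBG1 (1.64 ± 0.12), encodes a GTPase associated with cytosolic ribosomes, and the lowest, IBA57 (-0.77 ± 0.094), a factor of iron-sulfur protein maturation. Without these genes of other known roles, which were left out after seeing the data, 2 of 10 were higher and 1 lower.

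The mitochondrial ribosomal genes differed from the genes of the cytosolic ribosome in the size of their response. The 135 cytosolic ribosomal protein genes had medians of -2.05 in the deletion and -2.17 in wild type, where 129 and 132 of them fell. Their strain difference had a median of 0.13, with 17 (12.6%) higher and 6 (4.4%) lower, against 24.8% and 21.0% of all genes. The 91 ribosome biogenesis genes had medians of -0.04 in the deletion and -1.43 in wild type, and 84 of them were higher and none lower in the strain difference (median 1.30). Their extremes were NOP13 (2.95 ± 0.20), a nucleolar protein, and NOP10 (0.01 ± 0.12), a subunit of the particles that modify ribosomal RNA. RPS17B (1.66 ± 0.31) and RPL18B (-1.14 ± 0.23) were the extremes of the cytosolic ribosomal proteins.

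The 41 genes of the respiratory chain and ATP synthase had medians of 0.07 in the deletion and 0.52 in wild type. In the strain difference 2 (4.9%) were higher and 24 (58.5%) lower (median -0.52), against 24.8% and 21.0% of all genes. SDH4, a membrane anchor subunit of succinate dehydrogenase, was the lowest (-1.47 ± 0.28), and QCR6, a subunit of the cytochrome bc1 complex, the highest (1.07 ± 0.16). In wild type 26 of these genes (63.4%) rose and 2 (4.9%) fell. Of the mitochondrial ribosomal protein genes 1 (1.8%) rose and 11 (19.6%) fell there, against 29.7% and 36.3% of all genes. The median strain difference of the mitochondrial ribosomal genes, at -0.16, lay between that of the respiratory genes and that of all genes.

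**Figure D5:**
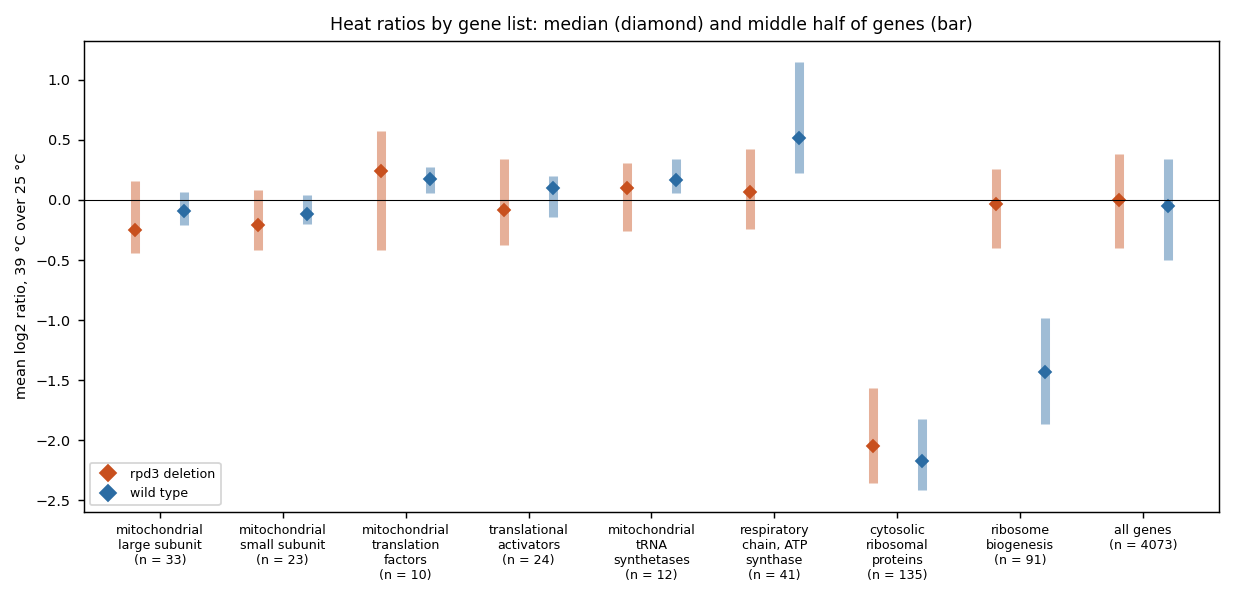
Mean log2 ratio (39 °C over 25 °C) in the rpd3 deletion and in wild type for each gene list, with diamonds at the median and bars over the middle range of genes (25% to 75%). The large subunit is at -0.25 and -0.09, the small subunit at -0.21 and -0.11, and cytosolic ribosomal proteins at -2.05 and -2.17.

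Of 24 regulators of mitochondrial ribosomal or respiratory genes, 3 (12.5%) were higher and 10 (41.7%) lower in the strain difference (median -0.22). Among all genes 24.8% were higher and 21.0% lower. HAP4, the activating subunit of the complex that drives respiratory genes, had ratios of -0.32, -0.58 and -0.45 in the deletion, against 0.17, 0.28 and 0.39 in wild type, with opposite signs on every array (difference -0.73 ± 0.12, limma adjusted p = 0.00289). PUF3 had a mean of -0.26 ± 0.13 in the deletion, against 0.12 ± 0.092 in wild type (difference -0.38 ± 0.11, adjusted p = 0.0289). SFP1, an activator of ribosomal protein and biogenesis genes, differed by -0.44 ± 0.13 (adjusted p = 0.026). IFH1, a coactivator of cytosolic ribosomal protein genes, was the highest (1.63 ± 0.13), and CAT8, an activator of genes for growth on non-fermentable carbon, the lowest (-0.75 ± 0.20). RPD3 itself, whose RNA both channels lack in the deletion, is counted among the 10 lower genes. Its difference was -0.29 ± 0.093 (limma adjusted p = 0.0378), a size that the deleted genes also reached (LEU2, -0.29 ± 0.10, adjusted p = 0.056).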

How the data were processed

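RNA of 2 strains was measured on 6 Agilent arrays of 2 channels, with 500 ng of RNA per sample from 200 ml cultures, per the labels' protocols. On each array Cy3 carried the 39 °C and Cy5 the 25 °C sample, per the labels. The deposited table holds 1 log2 ratio per spot, made by the authors. Its base and sign are not stated. Base 2 was inferred from how far the values reach and from the use of limma, the one tool listed per the submitters' processing notes. Positive values likely mean more RNA after heat. How background was corrected and arrays were normalized is not given in the sources used here. No scanner intensity was analysed here, and the number of arrays limits the precision.

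Of 45220 spots, 10 had no value, 28532 carried 1 gene symbol in the platform annotation and 16688 were unnamed. They gave 4073 genes, and 4065 symbols were found in the RefSeq R64 table after 125 were updated. Spots of a gene were averaged. Limma 3.58.1 in R 4.3.3 fitted a mean per strain over all 6 arrays (4 residual and 3.37 prior degrees of freedom), with Benjamini-Hochberg adjustment over 4073 genes. On simulated data with 4073 genes, 200 of them changed, the strain difference recovered 34.3%, 95.2% and 99.4% of changes of 0.5, 1 and 2 on the log2 scale, with 5.81% false calls. Noise was independent between genes there. The strain difference called 45.8% of genes in the data, far above the share changed there, so these rates need not hold. Python 3.11.15 made the summaries.

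The members and the 11 gene lists were chosen with earlier results of these data known. Members are named where, in a subunit, they had 1 of the 5 highest or lowest called means of a strain with the same sign on all 3 arrays, or 1 of the 6 highest or lowest called strain differences without overlap, or a textbook role. For a further list, the highest and lowest strain differences are named. MRPL8, MRPL9, MRPL19, MRPL33, MRPL35, MRPL39, MRPL49, MRP49, KGD4 and VAR1 were named after their values were seen. So were the genes given by call in both strains. Alternatives were 2 other centrings, scaling, quantile normalization, medians of spots, a filter on spot spread, removal of the length trend by loess, another variance model, a replicate block, and leaving out each array. Same-numbered arrays of the strains correlated with r = -0.22, 0.21 and 0.418 in their deviations, so numbers were not taken to pair them.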

Additional observations from a re-analysis of the deposited data

Results flagged for a closer look

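In 29 members the effect of heat differed between the strains by limma's test of the strain difference itself (adjusted p under 0.05 over 4073 genes). All values are deletion minus wild type on the log2 scale, and no explanation was tested. The lower large-subunit genes were MRPL4 (-0.83), MRPL36 (-0.78), MRPL38 (-0.69), MRPL28 (-0.64), MRPL23 (-0.59), MRPL10 (-0.58), MRPL8 (-0.55), MRPL37 (-0.46), MRPL19 (-0.39), MRP49 (-0.37), MRPL35 (-0.34) and MRPL49 (-0.30). Of these, MRPL8 is the one whose deletion and wild-type arrays overlapped. The lower small-subunit genes were RSM19 (-0.82), MRP10 (-0.62), RSM26 (-0.58), MRPS9 (-0.58), MRP21 (-0.48), MRP17 (-0.47) and MRP4 (-0.43). Higher in the deletion were MRPL40 (0.75), MRPL11 (0.74), MRPL16 (0.56), MRPL17 (0.41), MRP7 (0.39) and MRPL24 (0.37) of the large subunit. The higher small-subunit genes were RSM28 (0.88), RSM22 (0.83), MRP51 (0.51) and MRPS28 (0.49). The calls of MRPL8 (without deletion arrays 1 or 3 or wild-type arrays 1 or 2), MRPL37 (without deletion array 1 or wild-type arrays 1 or 2) and MRPL19 (without deletion array 1 or wild-type array 2) were lost, and these 3 were also lost with centring on the deleted genes. The calls of MRP49, MRPL35 and MRPL49 were lost without any 1 of the 6 arrays.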

How the results depend on the processing

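Depth is unknown for these ratios, and 3 arrays per strain limit the precision. In the deletion, where 11 members rose and 29 fell (median -0.22), removing the length trend gave 19 and 8 (median 0.0144), centring on the deleted genes gave 19 that fell (median -0.13), and quantile normalization a median of -0.26. Removing the length trend also turned MRP10 (0.0604), MRPL31 (0.00737), RSM10 (0.0143) and RSM18 (0.25) positive there, with a call for RSM18 alone. The large-subunit minus small-subunit median, -0.04 in the deletion, was -0.13 with medians of spots and -0.16 without the 25% of genes with the widest spot spread. In wild type, where 1 member rose and 11 fell (median -0.10), centring on the deleted genes gave 0 and 29 (median -0.25), removing the length trend 10 and 7 (median 0.0335), centring on the median of all genes 2 that rose and fitting each strain alone 4. In the strain difference, with 10 higher and 19 lower (median -0.16), centring on the deleted genes gave 17 and 4 (median 0.0839), removing the length trend 12 lower (median 0.00739) and quantile normalization a median of -0.23. The cause of these shifts was not tested. With each array left out in turn, 6 to 10 members rose and 19 to 29 fell in the deletion, 0 to 4 rose and 8 to 14 fell in wild type, and 5 to 11 were higher and 7 to 18 lower in the strain difference. The medians then ranged from -0.24 to -0.21 in the deletion, from -0.10 to -0.07 in wild type and from -0.20 to -0.12 for the difference. The replicate block, for numbers that were not taken to pair the arrays, gave 11 and 29 in the deletion, 5 and 13 in wild type, and 10 higher and 18 lower in the difference. Under every alternative, 14 of 40, 5 of 12 and 9 of 29 calls held in the deletion, in wild type and in the difference. Members were the same 56 under the symbols of the platform annotation.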

Other observations

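Of the mitochondrial ribosomal genes outside the name rule, IMG1 fell in both strains, with a mean of -0.70 ± 0.16 in the deletion, against -0.37 ± 0.23 in wild type (SD, n = 3 each), and limma adjusted p = 0.000842 and 0.0163. RPM2, the protein subunit of mitochondrial RNase P, had ratios of 1.15 ± 0.14 in the deletion and 1.08 ± 0.16 in wild type, above every member of the name rule in both strains. MRP8, which the rule left out, had 0.18 ± 0.17 in the deletion and 0.85 ± 0.22 in wild type, with a strain difference of -0.67 ± 0.15 (adjusted p = 0.01). These genes were named after their values were seen.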
